A study of Mus musculus with 48 samples.

Results

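Hair matrix and shaft transcription factors decide which layers of the growing hair a dividing matrix cell will build. The 8 genes described here were chosen by name: Foxn1, Msx1, Msx2, Dlx3, Gata3, Ovol1, Cux1 and Hr. Each was found once among the 46983 genes of both deposited tables, and all 8 passed the filter on low values in both. During anagen, the growth phase, matrix cells around the dermal papilla divide and then leave for the hair shaft or for the inner root sheath that encloses it. During catagen the matrix regresses, and during telogen the follicle rests without one. BMP signalling in the matrix lies upstream of Msx2 and Foxn1, and Gata3 and Cux1 are known from the inner root sheath.

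Whole skin of C57BL/6 mice was sampled from chin, ventral and dorsal domains at 6 labelled stages of the hair cycle. They run from competent telogen, a rest that activating signals can end, over 3 anagen stages (early, mid and late) and catagen to refractory telogen, a rest that resists such signals. This gave 43 libraries in 18 groups of 2 or 3, which ask whether the 3 domains pass through the cycle with the same molecular dynamics. A second table holds 3 libraries of the ear cartilage/muscle complex, 2 of telogen ear skin and 2 of dorsal competent telogen skin, the last with the same values as in the skin table, and asks how the slowly cycling ear differs from dorsal skin. No allele, transgene or treatment was named for any group, and the labels do not say whether the libraries of a group came from separate mice, so that p-values measure the spread between these libraries only. In whole skin, fewer cells of a type and less RNA per cell cannot be told apart.

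Levels are FPKM, fragments scaled to transcript length and library depth, so that levels of different genes can be compared per length. Between 6770417 and 29183045 fragments were estimated behind each of the 48 distinct libraries. In the skin libraries, the member value with the fewest fragments, Msx1 in ventral early anagen replicate 2, rested on about 103. The ear libraries are not covered by that minimum, and Foxn1 was listed at 0 in the ear cartilage/muscle complex. Marker levels did not follow the stage labels everywhere. The mean level of 10 proliferation genes, on the log2(FPKM + 1) scale, was 4.89 in chin and 5.11 in ventral competent telogen, against 2.41 to 2.52 in the 3 refractory telogen groups. Ventral early anagen, at 2.11, lay below all of them, with the highest level of 8 follicle stem cell genes (5.49). Dorsal competent telogen held hair shaft keratins at 9.09, close to dorsal late anagen (9.24), whereas dorsal early anagen stood at 5.52. The 8 skeletal muscle genes ranged from 4.01 in ventral catagen to 9.90 in chin refractory telogen. The 2 libraries of ventral refractory telogen also stood apart from each other. The labels were kept, and counts of members are also given without the 3 competent telogen groups and ventral early anagen. Ventral catagen replicate 1 is ventral by its title but carries an ear location in another label, and leaving it out changed no call of a member at the steps next to ventral catagen or among the domains in catagen.

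Per length, Gata3 and Dlx3 were the most abundant of the 8 genes, with medians of 239.8 and 184.4 FPKM over the 43 skin libraries. Ovol1 (84.5 FPKM), Msx2 (68.4 FPKM) and Cux1 (66.5 FPKM) formed a middle range, and Msx1 (37.5 FPKM), Foxn1 (28.5 FPKM) and Hr (21.98 FPKM) were the lowest. The amplitude over the 18 group means had another order. Msx1 spanned 17.7-fold and Hr 12.9-fold, then Msx2 6.31-fold, Dlx3 5.45-fold, Cux1 3.91-fold, Foxn1 3.77-fold, Gata3 3.33-fold and Ovol1 2.69-fold. Ventral early anagen was the lowest group for 5 of the 8 genes, Foxn1, Msx1, Msx2, Dlx3 and Cux1.

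**Figure D1:**
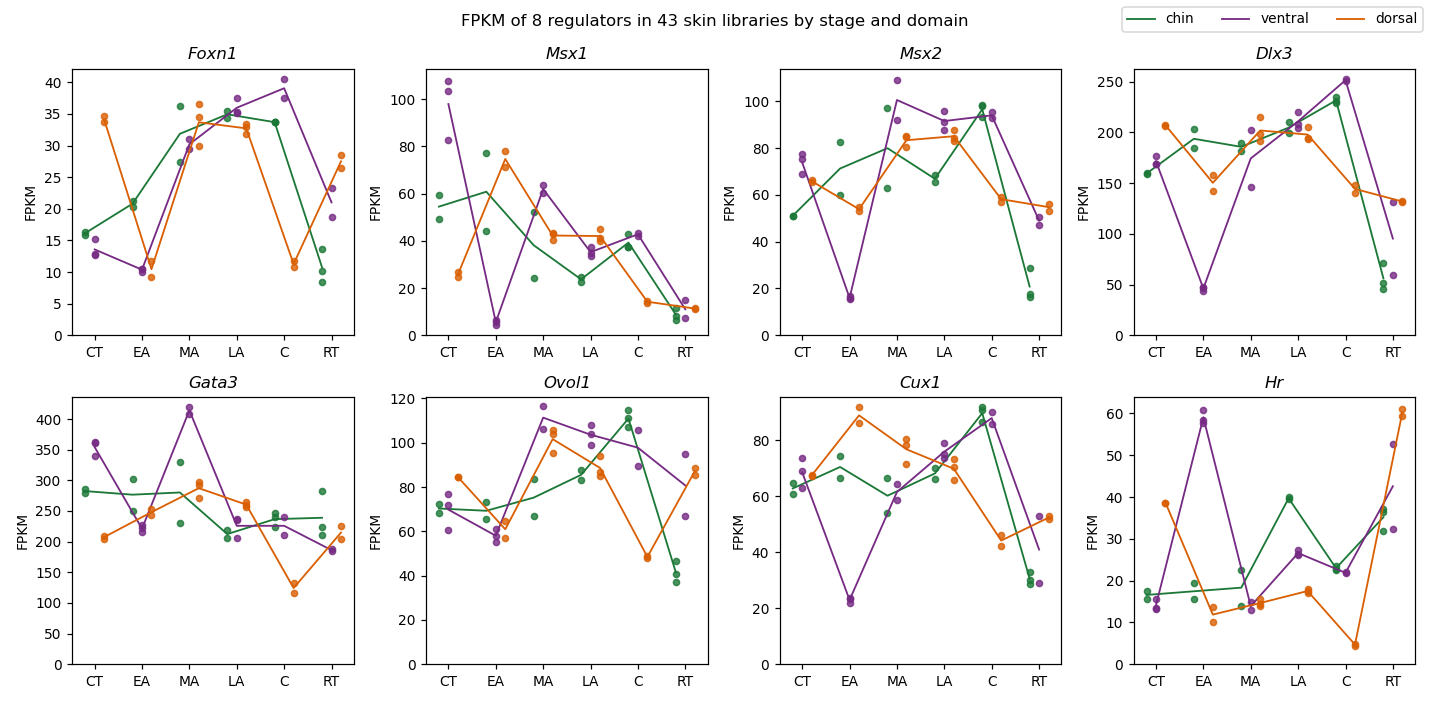
FPKM of the 8 regulators (vertical axes, starting at 0) at the 6 stages from competent telogen (CT) through early, mid and late anagen (EA, MA, LA) and catagen (C) to refractory telogen (RT). Points are libraries, lines join group means and colours mark the domain. Ventral early anagen dips in Msx1, Msx2, Dlx3 and Cux1, whereas Hr peaks there at 59.0 FPKM.

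All 8 regulators differed over the 6 stages in each domain when tested with limma's F-test at an adjusted p (Benjamini-Hochberg) below 0.05. So did most genes: 66.2% of the 21257 genes tested in chin, 70.2% in ventral and 68.5% in dorsal skin. The interaction of domain and stage was also called for 8 of 8, beside 73.3% of all genes. Without the competent telogen groups and ventral early anagen, the stage test called 7 of 8 in chin skin (63.8% of all genes) and 8 of 8 in ventral (47.5%) and dorsal skin (67.3%), and the interaction 8 of 8 (61.1%). Stage dependence by itself therefore did not set these genes apart from the rest of the transcriptome.

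The homeobox genes Msx1 and Msx2 encode repressors that respond to BMP signalling. Because their levels moved together with several other members, the 250 bases before their start sites are shown, from RefSeq on GRCm38.p6, with that of Foxn1. The level of Foxn1 did not follow Msx1 (Pearson's r of 0.26 over the 18 group means) but was closer to Msx2 (0.73). Whether these windows have a part in the levels was not tested. Capitals mark any match, on either strand, to 7 short motifs. These were TATAAA for the TATA-binding protein, CCAAT for NF-Y, GGGCGG for SP1, CTTTGA for the LEF1 and TCF family, TAATT for homeodomain proteins such as MSX and DLX, AGATAA for GATA factors and GACGC for FOXN1. The Msx1 window lies at chr5:37824586-37824835, the Msx2 window at chr13:53472781-53473030 and the Foxn1 window at chr11:78386609-78386858, all on the minus strand. By the GENCODE vM21 gene positions, the Msx2 window lies inside the gene, as do the Gata3 and Cux1 windows named below.
Msx1: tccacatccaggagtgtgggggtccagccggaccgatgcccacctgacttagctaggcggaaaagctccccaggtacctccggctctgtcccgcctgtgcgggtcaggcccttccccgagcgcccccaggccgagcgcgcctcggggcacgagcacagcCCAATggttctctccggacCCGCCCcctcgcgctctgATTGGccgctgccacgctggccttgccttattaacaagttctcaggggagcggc
Msx2: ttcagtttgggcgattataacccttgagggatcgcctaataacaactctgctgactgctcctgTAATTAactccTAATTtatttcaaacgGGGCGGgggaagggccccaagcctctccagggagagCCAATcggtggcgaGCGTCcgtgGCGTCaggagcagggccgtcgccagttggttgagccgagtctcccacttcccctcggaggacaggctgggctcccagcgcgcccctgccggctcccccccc
Foxn1: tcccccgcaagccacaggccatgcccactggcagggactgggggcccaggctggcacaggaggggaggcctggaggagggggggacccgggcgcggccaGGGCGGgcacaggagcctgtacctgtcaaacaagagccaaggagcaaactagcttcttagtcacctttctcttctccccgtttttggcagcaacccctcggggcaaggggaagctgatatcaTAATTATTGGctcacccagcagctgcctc
In the Msx1 window, CCAAT matched 2 times and GGGCGG 1 time. The Msx2 window held 3 TAATT matches, of which 2 overlap as TAATTA, 2 GACGC matches, and 1 each of CCAAT and GGGCGG. Upstream of Foxn1, TAATT matched 2 times, again overlapping as TAATTA and running into the only CCAAT match, which is on the opposite strand, and GGGCGG matched 1 time. Of 32851 promoter windows of this length, 33.8% held CCAAT, 32.7% GGGCGG, 25% TAATT, 22.6% GACGC, 13.8% CTTTGA, 12.4% TATAAA and 9.99% AGATAA, so that none of these matches is rare. RefSeq windows were also at hand for Gata3, with 2 GGGCGG matches and 1 of GACGC, and for Cux1, with no match. Those of Dlx3, Ovol1 and Hr were not analysed here.

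Msx1 (chromosome 5, 37820485 to 37824583, minus strand, GRCm38) was highest in ventral competent telogen, with 108, 103 and 82.6 FPKM in the 3 libraries. In ventral early anagen its libraries read 5.64, 4.34 and 6.62 FPKM, and in ventral mid anagen 60.3 and 63.6 FPKM. The 3 groups do not overlap. On the log2(FPKM + 1) scale, the ventral level fell by 3.93 ± 0.22 (SE) from competent telogen to early anagen (adjusted p = 2.13e-14) and rose by 3.28 ± 0.25 to mid anagen (adjusted p = 1.16e-11), both by limma over all genes. Dorsal skin went the other way at the first of these steps. Its libraries held 26.7 and 24.7 FPKM in competent telogen and 78.2 and 71.1 FPKM in early anagen, a difference of 1.503 ± 0.27 (adjusted p = 4.58e-05). In chin skin, the early anagen libraries (44.3 and 77.3 FPKM) enclosed those of competent telogen (59.5 and 49.5 FPKM), and no step up to catagen passed the test. The one from early to mid anagen (-0.70 ± 0.27, adjusted p = 0.0681) did so without early anagen replicate 1 or mid anagen replicate 1 (adjusted p = 0.0214 and 0.0041).

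At the end of the cycle Msx1 was low in all 3 domains. Refractory telogen libraries held 8.30, 11.5 and 6.44 FPKM in chin, 7.17 and 14.8 FPKM in ventral and 11.6 and 11.1 FPKM in dorsal skin, and did not differ among the domains by the F-test (adjusted p = 0.426). The domains reached that level at different labels. Dorsal catagen was already down to 13.9 and 14.6 FPKM, from 39.95 to 44.92 FPKM in late anagen, a step of -1.5 ± 0.25 (adjusted p = 1.3e-05). Chin catagen (37.28 to 42.98 FPKM) and ventral catagen (42.2 and 43.4 FPKM) lay above that level. The chin level had been lower in late anagen, at 22.5 and 24.8 FPKM. That chin step of 0.70 ± 0.25 did not pass limma's test (adjusted p = 0.0563). It did so with TPM (adjusted p = 0.0312) and at a minimum of 5 FPKM (adjusted p = 0.039). The step from catagen to refractory telogen was -2.08 ± 0.22 in chin skin and -1.95 ± 0.27 in ventral skin (adjusted p = 5.86e-09 and 1.89e-06).

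Msx2 (chromosome 13, 53466884 to 53473074, minus strand) shared the ventral dip and little else of the early pattern. Its ventral libraries held 77.5, 75.3 and 68.8 FPKM in competent telogen, 15.4, 16.7 and 15.8 FPKM in early anagen and 91.8 and 109 FPKM in mid anagen. The level fell by 2.14 ± 0.14 into early anagen (adjusted p = 4.11e-13) and rose by 2.58 ± 0.15 out of it (adjusted p = 1.21e-13). Dorsal skin changed far less: its libraries ran from 53.2 FPKM in early anagen to 87.9 FPKM in late anagen, and 53.3 and 56.3 FPKM remained in refractory telogen. Chin refractory telogen, with 17.6, 28.7 and 16.2 FPKM, did not overlap the ventral (47.3 and 50.7 FPKM) or dorsal libraries of that stage, and the 3 domains differed there (adjusted p = 1.06e-08). The chin step from catagen, at 93.2 to 98.5 FPKM, was -2.20 ± 0.14 (adjusted p = 2.35e-13).

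Dlx3 (chromosome 11, 95120119 to 95125296, plus strand), a homeobox gene needed for differentiation of the shaft and inner root sheath, peaked in catagen of 2 domains. Ventral catagen held 251 and 253 FPKM and chin catagen 229, 235 and 231 FPKM, whereas dorsal catagen held 140.0 and 149 FPKM. Relative to dorsal late anagen (194 to 205 FPKM) the dorsal level fell by 0.45 ± 0.18 on the log2 scale (adjusted p = 0.0472), a call that was lost in each of the 5 fits that left out 1 of its libraries (adjusted p 0.0738 to 0.203). Dlx3 was again low in ventral early anagen, where the libraries held 47.9, 43.5 and 47.0 FPKM. From competent telogen, at 169 to 177 FPKM, the level fell by 1.87 ± 0.16 (adjusted p = 1.9e-10). In refractory telogen, chin libraries read 45.3, 71.7 and 51.4 FPKM (a step of -2.05 ± 0.16 from catagen, adjusted p = 2.13e-11), dorsal ones 132 FPKM in both, and ventral ones 59.5 and 131 FPKM, so that the ventral mean of 95.4 ± 50.8 FPKM (SD, n = 2) describes neither library.

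Cux1 (chromosome 5, 136248135 to 136567490, minus strand), a cut-type homeodomain factor of the inner root sheath, followed Dlx3 in the chin and ventral domains but not in dorsal skin. It was at 90.8, 86.4 and 91.8 FPKM in chin catagen and 90.2 and 85.6 FPKM in ventral catagen, and at 21.98, 23.2 and 23.6 FPKM in ventral early anagen. In dorsal skin its highest level came in early anagen, 91.8 and 86.0 FPKM against 67.5 and 67.4 FPKM in competent telogen. That difference of 0.39 ± 0.14 (adjusted p = 0.0283) was lost in each of the 4 fits without 1 of its libraries and came to -0.039 (adjusted p = 0.878) under median of ratios scaling. The gene overlaps 4 others in GENCODE vM21, 1 of them, Gm16599, on the opposite strand, and the strand setting of the counting is not given in the sources used here. The chin step from catagen to refractory telogen, where libraries held 30.1, 32.8 and 28.6 FPKM, was -1.53 ± 0.12 (adjusted p = 1.56e-11).

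Foxn1 (chromosome 11, 78357577 to 78386558, minus strand), the winged-helix factor that is mutated in nude mice and drives hair keratin expression, had a plateau between 27.4 and 37.5 FPKM in the libraries of mid and late anagen in every domain. Outside it the domains parted. In competent telogen the libraries held 15.9 and 16.4 FPKM in chin, 15.3, 12.6 and 12.8 FPKM in ventral and 33.7 and 34.6 FPKM in dorsal skin, and they differed among the domains (adjusted p = 9.88e-09). Catagen reversed that order, with 33.7 FPKM in each of the 3 chin libraries, 40.6 and 37.6 FPKM in ventral and 10.7 and 11.8 FPKM in dorsal skin (adjusted p = 3.6e-11). Dorsal Foxn1 thus fell from late anagen to catagen by 1.46 ± 0.13 and was higher again in refractory telogen, at 26.5 and 28.5 FPKM, by 1.22 ± 0.14 (adjusted p = 3.08e-10 and 3.66e-08). Chin skin had its only large step at the end, from catagen to 10.2, 13.6 and 8.44 FPKM in refractory telogen (-1.59 ± 0.11, adjusted p = 4.22e-12).

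Ovol1 (chromosome 19, 5549136 to 5560646, minus strand), a zinc finger factor of epidermal and hair differentiation, had the smallest amplitude and the most overlap between groups. In the order of its 18 groups, 14 of 17 neighbouring pairs overlapped. Ventral mid anagen (106 and 117 FPKM), chin catagen (107 to 115 FPKM) and ventral late anagen (99.0 to 108 FPKM) led, and chin refractory telogen (40.7, 46.4 and 37.3 FPKM) and dorsal catagen (48.8 and 48.1 FPKM) were last. From late anagen to catagen it fell by 0.86 ± 0.12 in dorsal skin (adjusted p = 6.77e-07). The chin step of 0.37 ± 0.12 in the opposite direction (adjusted p = 0.0319) was lost in each of the 5 fits without 1 of its libraries. Ovol1 overlaps 2 genes on the opposite strand, Gm31166 and AC126029.1.

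Gata3 (chromosome 2, 9857078 to 9890034, minus strand), a zinc finger factor that specifies the inner root sheath and is also made by T lymphocytes, did not follow the rest. Its 3 highest groups were ventral mid anagen (420.0 and 408 FPKM), ventral competent telogen (361, 362 and 340.2 FPKM) and dorsal mid anagen (272, 293 and 298 FPKM). Dorsal catagen was lowest, at 132 and 116 FPKM, a step of -1.06 ± 0.11 from late anagen (adjusted p = 9.2e-09). It was the one member that did not pass the test between chin catagen and refractory telogen: 247, 240.0 and 223 FPKM stood against 211, 282 and 223 FPKM (adjusted p = 1). The 8 T lymphocyte markers, whose mean log2 level ranged from 0.79 to 2.15 over the groups and whose most abundant gene was Cd3g (2.51 to 21.9 FPKM), had r = 0.47 with Gata3 over the 18 group means. Their part in the Gata3 level was not tested. The gene overlaps 3 others, 2 of them, Gm13256 and 4930412O13Rik, on the opposite strand.

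Hr (chromosome 14, 70552212 to 70573548, plus strand), the hairless corepressor that is needed for follicles to regenerate after catagen, ran against the homeobox genes in ventral early anagen, but not at every step. From dorsal late anagen to catagen it went down with Msx1, Msx2, Dlx3 and Cux1 (-1.71 ± 0.15, adjusted p = 2.43e-10 by limma). Ventral early anagen, where 5 of the others were lowest, held 57.8, 58.5 and 60.9 FPKM of Hr, against 15.6, 13.3 and 13.4 FPKM in competent telogen and 12.9 and 14.8 FPKM in mid anagen. The first of these steps was 1.99 ± 0.13 (adjusted p = 8.72e-13) and the second -2.02 ± 0.15 (adjusted p = 7.85e-12). Dorsal refractory telogen reached the same level, with 59.5 and 61.0 FPKM, and directly followed the lowest group, dorsal catagen with 4.41 and 4.94 FPKM. That step, 3.43 ± 0.16 or 12.9-fold on the FPKM means (adjusted p = 1.05e-15), was the largest upward one of any member. Chin and ventral Hr also rose from catagen to refractory telogen, by 0.59 ± 0.13 and 0.89 ± 0.16 (adjusted p = 0.000456 and 8.52e-05), and both rose from mid to late anagen, chin from 14.0 and 22.6 to 39.5 and 39.9 FPKM. In ventral refractory telogen the 2 libraries were again far apart, at 32.5 and 52.7 FPKM.

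Counted over the 5 steps between consecutive stages, the members behaved differently in each domain. From competent telogen to early anagen, 0 of 8 passed the limma test in chin skin, where 1.26% of all genes were higher and 0.875% lower in early anagen, and 2 members, Foxn1 (0.35 ± 0.14) and Msx2 (0.46 ± 0.17), were at an unadjusted p under 0.05. In ventral skin 7 were lower and Hr was higher, beside 29.3% and 13.2% of all genes, and the member median was -1.11 against -0.10 for all genes. The Ovol1 and Foxn1 calls among these were lost in 4 and 1 of the 6 fits without 1 library, the latter without ventral competent telogen replicate 1, and under scaling by the median of ratios. In dorsal skin Msx1 and Cux1 were higher (35.2% of all genes) and Foxn1, Ovol1 and Hr lower (8.24%), around a median of 0.25 for all genes. The Ovol1 call was lost without dorsal early anagen replicate 2 (adjusted p = 0.0571) and with TPM (adjusted p = 0.153), where Gata3 was gained as higher. Scaling by the median of ratios brought that median to 0, with 15.8% of all genes higher and 17% lower, and left 1 member higher (Msx1) and 5 lower, with Msx2 (-0.71) and Dlx3 (-0.90) added. With the dorsal libraries alone, 3 were higher (44.4%) and 5 lower (11.6%).

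From early to mid anagen, chin skin had 1 call, a higher Foxn1 (3.66% of all genes were higher and 14.5% lower), which was lost without chin mid anagen replicate 1 (adjusted p = 0.117). Ventral skin had 7 higher (16.8%) and Hr lower (25.6%), with a member median of 1.42 against -0.093 for all genes. In dorsal skin Foxn1, Msx2 and Ovol1 were higher (9.09%) and Msx1 lower (30.1%). The median over all genes at that step was -0.18. The Msx1 call was lost, and an Hr call gained, without dorsal early anagen replicate 1 (adjusted p = 0.0826 and 0.044). After median of ratios scaling, with 16.4% of all genes higher and 15.9% lower, 6 members were higher, Dlx3 (0.72), Gata3 (0.51) and Hr (0.57) being added, and 0 lower, Msx1 being at adjusted p = 0.091. The same 6 were higher (12.3%) with the dorsal libraries alone, and Msx1 and Cux1 lower (39.3%).

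From mid to late anagen few members moved. Chin skin had a higher Hr (7.43%) and a lower Gata3 (12.3%), the latter lost in 3 of 4 fits without 1 library. Ventral skin had a higher Hr (12.6%) and lower Msx1 and Gata3 (11.6%). The ventral Msx1 call was lost without either mid anagen library (adjusted p up to 0.112), and the chin steps of Msx1 and Msx2 passed without chin mid anagen replicate 2 (adjusted p = 0.00615 and 0.041). The ventral Gata3 step was from 414 to 226 FPKM (-0.88 ± 0.11, adjusted p = 1.4e-06). In dorsal skin 0 of 8 passed limma's test, where 1.15% of all genes were higher and 1.53% lower, with 0 of 8 at an unadjusted p under 0.05. The largest difference, of Hr, was 0.24 ± 0.13.

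The groups labelled catagen separated dorsal skin from the other domains. Summed hair shaft keratins in them stood at 11490 to 12500 FPKM in chin skin, against 12420 to 13190 FPKM in late anagen. In ventral skin they stood at 14580 to 17610 against 14750 to 16030 FPKM, and in dorsal skin 10360 to 10750 against 14820 to 16060 FPKM. Whether the 3 groups lie at the same point of the cycle was not tested. All 8 members were lower in dorsal catagen than in dorsal late anagen, where 18.7% of all genes were lower and 20% higher, and their median was -0.96 against 0 for all genes. Beside the Dlx3 call, that of Msx2 was lost without dorsal catagen replicate 2 (adjusted p = 0.0504). In chin skin Msx2, Ovol1 and Cux1 were higher (8.94%) and Hr lower (4.19%), and the 3 higher calls were lost in 4 or 5 of the 5 fits without 1 library and with the median of ratios. In ventral skin 0 of 8 passed limma's test (2.83% of all genes were higher and 3.1% lower) and 0 of 8 were at an unadjusted p under 0.05, the largest difference being 0.28 ± 0.25 for Msx1. Proliferation genes stood at 4.92 on the log2 scale in dorsal catagen, against 4.43 in chin and 4.56 in ventral catagen, so that dorsal catagen combined the highest level of these genes among the catagen groups with the lowest levels of Hr and Gata3 among all 18 groups. Their summed level was 280.2 to 285.6 FPKM in chin catagen, against 182.5 to 184.4 FPKM in chin late anagen. In ventral skin it was 295.5 to 306.7 against 228.2 to 240.4 FPKM, and in dorsal skin 439.6 to 449.1 against 307.5 to 318.6 FPKM. All 8 skeletal muscle genes were also higher in dorsal catagen than in dorsal late anagen (median 2.25, a summed level of 1814 to 1862 against 354.9 to 383.9 FPKM), as were 5 of 8 dermal papilla genes, with 1 lower (median 0.81). The part of these in the member values was not tested.

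From catagen to refractory telogen, 6 members were lower and Hr higher in chin skin, beside 17.5% and 30.5% of all genes, with a member median of -1.56. Ventral skin had 5 lower (Foxn1, Msx1, Msx2, Dlx3 and Cux1, beside 18.8%) and Hr higher (14.9%), and Ovol1 was also called lower without ventral catagen replicate 2 or ventral refractory telogen replicate 1 (adjusted p = 0.0485 and 0.00196). By limma, dorsal skin had 0 lower (24.5%), also at an unadjusted p under 0.05, and 4 higher (Foxn1, Gata3, Ovol1 and Hr, beside 19.1%). With the dorsal libraries alone, Msx1 was lower (-0.30, adjusted p = 0.00546) and Cux1 higher (0.24, adjusted p = 0.0145), and Cux1 was also higher after median of ratios scaling (0.36) and quantile normalization (0.45). Skeletal muscle genes also moved at this step, from 7.67 to 9.90 on the log2 scale in chin, 4.01 to 6.07 in ventral and 7.28 to 7.98 in dorsal skin. Their part in the member values was not tested.

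**Figure D2:**
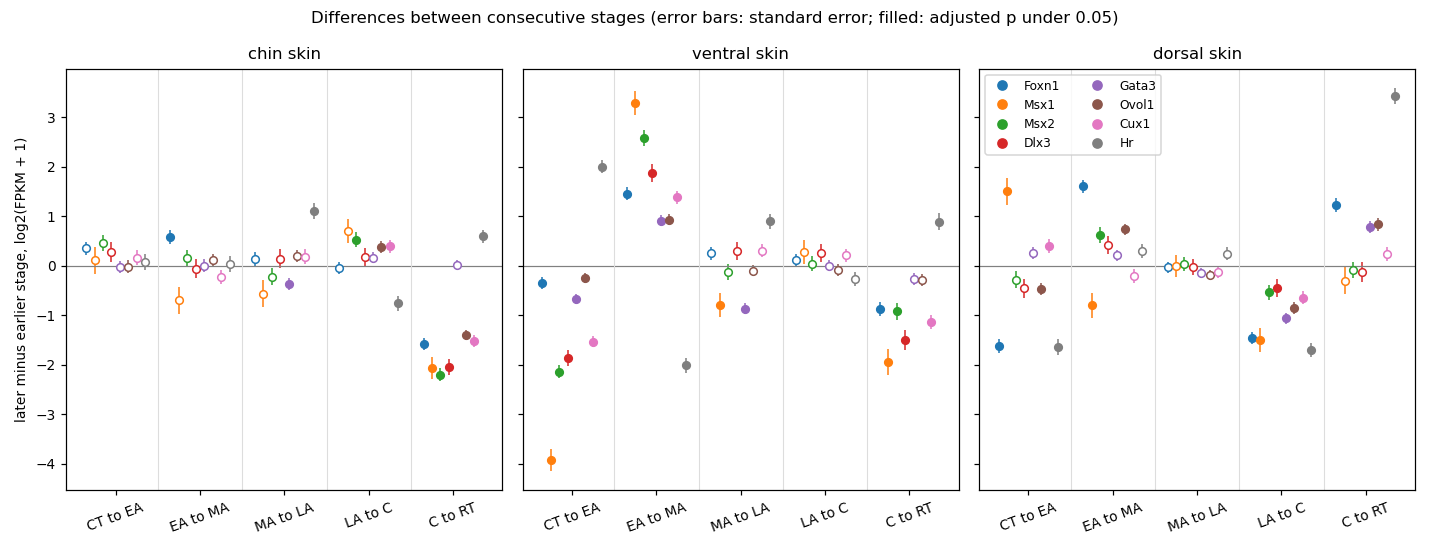
Differences between consecutive stages, later minus earlier, on the log2(FPKM + 1) scale (vertical axis) for the 8 regulators in chin, ventral and dorsal skin. Points are limma estimates with their standard errors, filled where the adjusted p was under 0.05. In chin skin 6 members fall at the last step, in ventral skin 7 fall at the first step and 5 at the last, with Hr rising by 1.99 at the first and falling (-2.02) at the second, and in dorsal skin 8 of 8 fall from late anagen to catagen.

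Set side by side at each stage, 8 of 8 members passed the F-test among domains in catagen (42.9% of all genes), and 7 of 8, all but Msx1, in refractory telogen (42.2%). The latter count was 6 without the competent telogen and ventral early anagen groups, where Gata3 was lost (adjusted p = 0.0823), and 3 with the libraries of that stage alone. In early anagen 6 of 8 passed (51.6%), all but Gata3 and Ovol1. That count came down to 2 of 8 (25.7% of all genes) when ventral early anagen and the competent telogen groups were left out and chin was compared with dorsal skin alone. In competent telogen 5 of 8 passed (54%): Foxn1, Msx1, Msx2, Gata3 and Hr. In late anagen Hr alone passed (20.8%), although 5 members did with the libraries of that stage alone and 4 with TPM. Its libraries held 39.5 and 39.9 FPKM in chin, 26.1 to 27.2 FPKM in ventral and 17.1 to 17.9 FPKM in dorsal skin (adjusted p = 6.26e-06). In mid anagen Gata3, Ovol1 and Cux1 passed (38.1%), a count that was 6 without chin mid anagen replicate 1 and 1 without chin mid anagen replicate 2, where late anagen gave 4. With the libraries of mid anagen alone it was 0, so that the order of the anagen stages depends on the fit. Shares of all genes are not given for the fits with 1 stage, with TPM or without 1 library. Their counts are therefore not a result about the members. Without the competent telogen and ventral early anagen groups, 2 members passed in mid anagen (35.8% of all genes), 1 in late anagen (18.5%), 8 in catagen (41.9%) and 6 in refractory telogen (41.2%).

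Over the 18 group means, which share their libraries and their normalization between genes, Msx2, Dlx3 and Cux1 had the most similar profiles. Pearson's r, on the log2 scale, was 0.94 for Msx2 with Dlx3, 0.93 for Dlx3 with Cux1 and 0.87 for Msx2 with Cux1. Foxn1 and Ovol1 had r = 0.88, but were not apart from these: Foxn1 had 0.73 with Msx2 and 0.71 with Dlx3, and Ovol1 0.76 with Msx2. Msx1 had 0.84 with Cux1 and 0.75 with Dlx3, while Foxn1 and Msx1 had r = 0.26. Hr had negative values with Msx1 (-0.58), Msx2 (-0.43), Dlx3 (-0.41) and Cux1 (-0.39). Gata3 had r = 0.64 with Msx1, and between -0.08 and 0.35 with the others.

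Msx1 and Foxn1 also differed against gene lists. Msx1 had r = 0.89 with the 10 proliferation genes (most abundant Cdk1, Birc5 and Top2a) and 0.23 with the 8 inner root sheath genes (Krt71, Krt27 and Krt25). For Foxn1 the values were 0.10 and 0.88, and 0.83 with the 13 hair shaft keratins (5430421N21Rik, which the identifiers pair with Krt83, Krt33a and Krt33b). Msx2 (0.67 and 0.80) and Dlx3 (0.74 and 0.77) had high values with both the proliferation and the inner root sheath genes. Hr had r = -0.84 with proliferation genes. Follicle stem cell genes (Krt15, Sox9 and Cd34) had their lowest values with Dlx3 (-0.82) and Msx2 (-0.80).

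**Figure D3:**
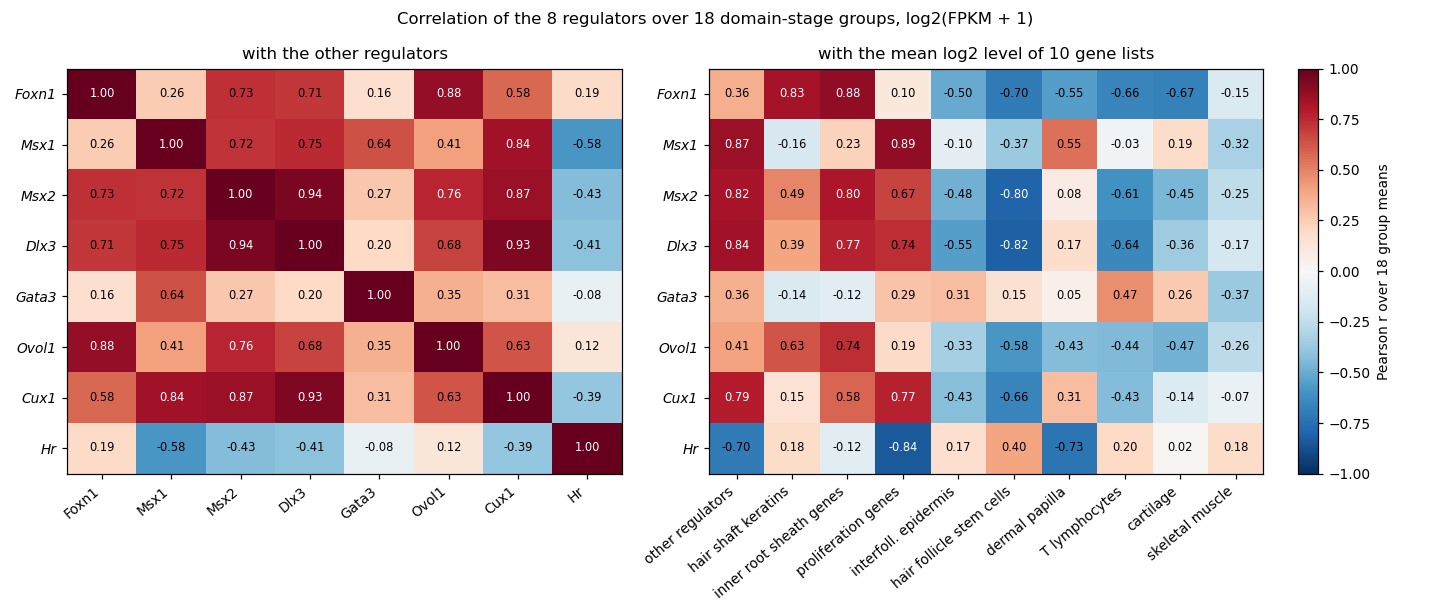
Pearson's r over the 18 group means of log2(FPKM + 1), between the 8 regulators (left) and between each regulator and the mean level of 10 gene lists (right). Red is positive and blue negative. Msx2, Dlx3 and Cux1 share values of 0.87 to 0.94, and Hr is negative with proliferation genes (-0.84).

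Dorsal catagen left these relations. With proliferation genes at 4.92 it held Msx1 at 14.2 ± 0.50 FPKM (SD, n = 2), whereas dorsal late anagen, at 4.54, held 42.0 ± 2.59 FPKM (n = 3). Its Foxn1, 11.3 ± 0.78 FPKM, likewise stood beside inner root sheath genes at 10.7, a level at which ventral mid anagen, at 10.8, held 30.2 ± 1.09 FPKM (n = 2).

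**Figure D4:**
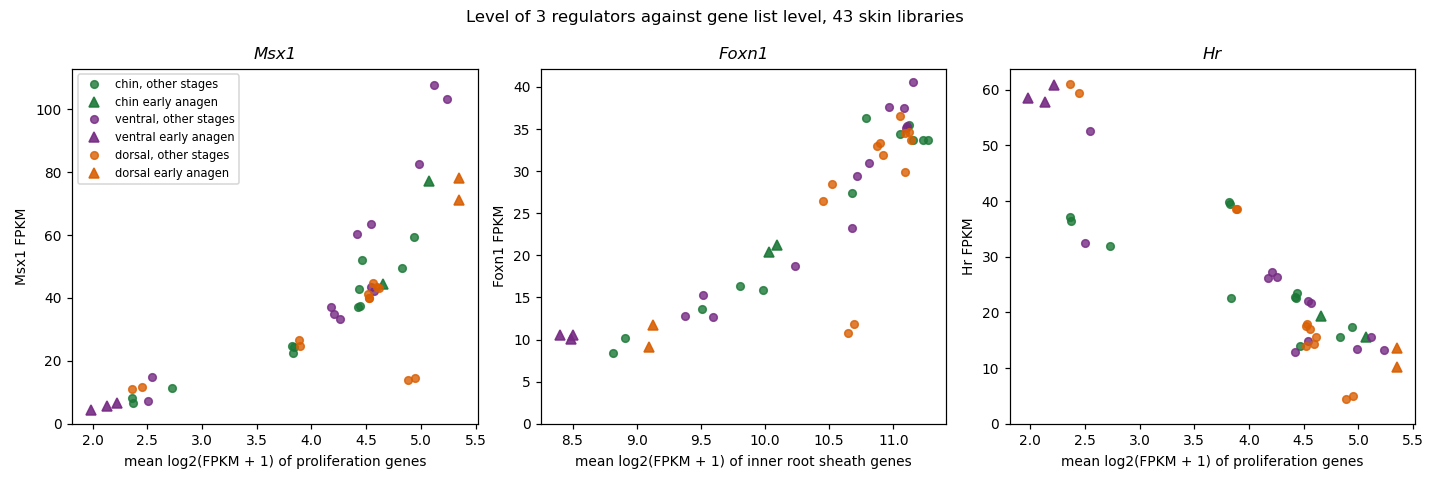
FPKM of Msx1, Foxn1 and Hr (vertical axes) against the mean log2(FPKM + 1) of proliferation or inner root sheath genes (horizontal axes) in the 43 skin libraries, with triangles for early anagen. Msx1 rises and Hr falls with the proliferation genes, and the 2 dorsal catagen libraries, with Msx1 at 13.9 and 14.6 FPKM and Foxn1 at 10.7 and 11.8 FPKM, lie below the other libraries of like list level.

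The genes with the most similar profiles, among 12062 genes whose highest group mean was at least 5 FPKM, differed between the members. Those of Msx1 were the mitotic kinases Plk1 (r = 0.97, and a gene of the proliferation list) and Nek2 (0.95) and the histone gene Hist1h2ae (0.95). Dlx3 was most like Ctps, which makes CTP (0.97), the hair keratin Krt35 (0.97) and Slc16a6 (0.95). The mean level of the hair shaft keratin list, which includes Krt35, had only r = 0.39 with Dlx3. Ctps was also among the genes nearest to Msx2, with Spint1 and the gap junction gene Gjb2 (all 0.95), and Slc16a6 among those nearest to Cux1 (0.94), with Ccdc155 and the arginase gene Arg2 (both 0.95). Foxn1 was nearest to Psors1c2, Gprc5a and Hsd17b14 (all 0.94), and Ovol1 to Pnpla1 (0.93), Dok4 and Pqlc2 (both 0.91). For Gata3 they were Txnl4b, Ddi2 and Tor2a (0.93 to 0.94), and for Hr the kinase gene Mapk3 (0.94), the companion layer keratin Krt6a (0.91) and Myo1d (0.90).

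A list of 18 further regulators of the matrix, shaft and inner root sheath, led by Hoxc13, Grhl1 and Sp6 in abundance, changed in some of the same steps. Of its 17 tested genes, 12 were lower and 3 higher in ventral early anagen than in competent telogen (29.3% and 13.2% of all genes), and 10 were higher and 2 lower at the next step (16.8% and 25.6%). From catagen to refractory telogen 11 were lower and 3 higher in chin skin (17.5% and 30.5%), and 11 lower and 2 higher in ventral skin (18.8% and 14.9%). In dorsal skin, where 4 members were higher at that step, 7 of the 17 were lower and 3 higher (24.5% and 19.1%). At the dorsal step from late anagen to catagen, where all 8 members were lower, 4 of the 17 were lower and 5 higher, with a median of 0.16 and 18.7% and 20% of all genes lower and higher. The mean level of the list had r = 0.87 with Msx1, 0.84 with Dlx3 and -0.70 with Hr.

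In the ear table, 7 of the 8 regulators were lower in telogen ear skin than in dorsal competent telogen skin, beside 14.6% of the 19299 genes tested, and by limma 0 were higher (44.7%), also at an unadjusted p under 0.05. Dlx3 had the largest difference, 18.7 and 18.3 FPKM in ear skin against 208 and 207 FPKM in dorsal skin (-3.41 ± 0.13, adjusted p = 6.88e-06). Msx2 followed with 10.4 and 10.7 FPKM against 66.2 and 65.6 FPKM (-2.53 ± 0.10, adjusted p = 9.05e-06), and Foxn1 with 5.86 and 5.82 FPKM against 33.7 and 34.6 FPKM (-2.36 ± 0.076, adjusted p = 3.3e-06). In none of these did the groups overlap.

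Smaller differences were found for Cux1 (20.9 and 19.3 against 67.5 and 67.4 FPKM), Ovol1 (39.9 and 36.9 against 84.6 and 84.5 FPKM), Hr (19.7 and 17.5 against 38.7 FPKM in both) and Msx1 (13.9 and 12.9 against 26.7 and 24.7 FPKM), at -1.70, -1.12, -1.02 and -0.89 on the log2 scale. Gata3, with 161 and 176 FPKM in ear skin and 210.0 and 205 FPKM in dorsal skin, did not pass the test (-0.30 ± 0.13, adjusted p = 0.0831), but did after median of ratios scaling (-0.79, adjusted p = 0.00227, with 26.7% of all genes higher and 27.4% lower) and without cartilage/muscle complex replicate 1 or 2 (adjusted p = 0.0309 and 0.034). The Ovol1 call was lost at a pseudocount of 0.1 (adjusted p = 0.0508). Hair shaft keratins stood at 2.29 on the log2 scale in ear skin and 9.09 in dorsal skin, and inner root sheath genes at 3.48 and 11.1, and the part of follicle content in the member values was not tested. With dorsal refractory telogen in place of competent telogen, 6 members were lower (13%) and Msx1, at 11.6 and 11.1 FPKM in that group, was higher in ear skin by 0.22 ± 0.074 (adjusted p = 0.0411, beside 44.5% of all genes).

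The ear cartilage/muscle complex had high cartilage genes (6.63 on the log2 scale, led by Chad, Comp and Lect1) and skeletal muscle genes (10.1, led by Acta1, Mylpf and Tnnt3), and all 13 hair shaft keratins together summed to at most 0.08 FPKM. Foxn1 was listed at 0 in its 3 libraries. Dlx3 (0.12 to 0.48 FPKM), Gata3 (0 to 0.29 FPKM), Ovol1 (0.16 to 0.55 FPKM) and Msx2 (1.43 to 1.92 FPKM) were close to 0. Cux1 remained at 10.3 to 11.2 FPKM and Hr at 9.79 to 15.7 FPKM.

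Msx1 was the exception. The complex held 135, 147 and 135 FPKM, above every one of the 43 skin libraries, whose highest was 108 FPKM. On the log2 scale that was 2.39 ± 0.069 above dorsal skin (adjusted p = 7.63e-07) and 3.29 ± 0.069 above ear skin (adjusted p = 2.14e-07). Against dorsal skin 1 member was higher (42.8% of all genes) and 7 lower (28.3%), and against ear skin likewise 1 (28%) and 7 (38.5%). The Hr call against ear skin (-0.64 ± 0.19, adjusted p = 0.0272) was lost in 4 of 7 fits without 1 library, with adjusted p up to 0.139. Levels of the ear and skin tables are set side by side here, and the dorsal libraries they share have the same values in both.

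**Figure D5:**
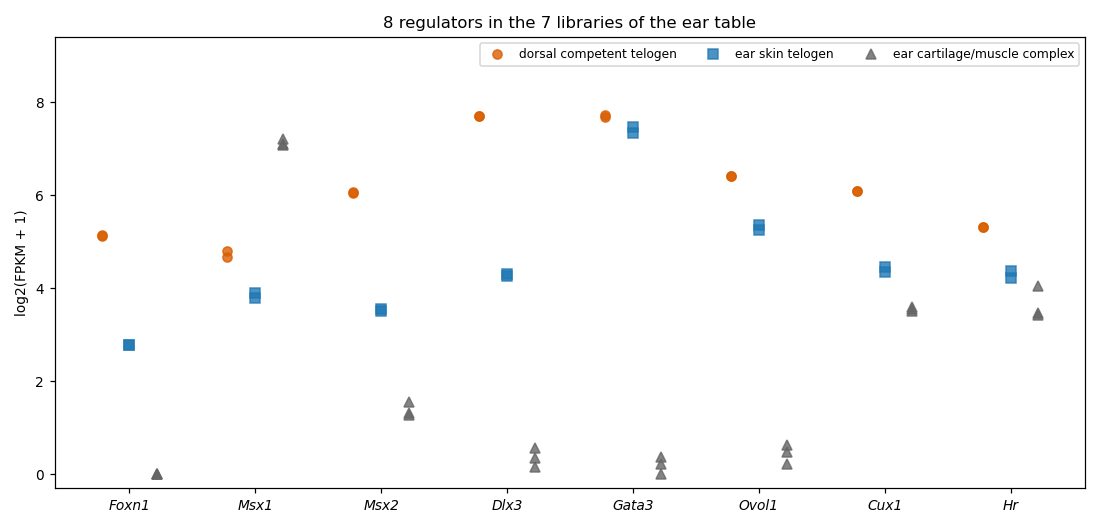
Levels of the 8 regulators on the log2(FPKM + 1) scale (vertical axis) in the 2 dorsal competent telogen, 2 ear skin telogen and 3 ear cartilage/muscle complex libraries, 1 point per library. Msx1 alone is highest in the complex, while Foxn1 is at 0 there and Gata3 is near dorsal skin in ear skin.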

How the data were processed

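Full-length cDNA libraries (SMART-seq2) had been made from total RNA and read from both ends on a NextSeq. The authors mapped the reads to mm10 with GENCODE vM8 and used RSEM 1.2.25 for quantification. Their text also reports a batch correction, without naming the batches. The values available here are FPKM per gene with 2 decimals. Whole-fragment steps were still used in these values to estimate the depth of all 48 libraries. Whether the values carry the batch correction was not tested, so batch differences may remain in every comparison of groups. A wrong or missing batch term could move levels between groups and was not tested. Here values were taken as log2(FPKM + 1), the genes tested were those that reached 0.5 FPKM in 2 or more libraries, and limma 3.58.1 in R 4.3.3 was fitted with a variance trend, the 43 skin libraries as 18 groups and the 7 ear libraries as 3, with Benjamini-Hochberg adjustment over all genes tested and a threshold of 0.05. The authors' methods name edgeR on FPKM, and since no counts were used here no count model was fitted. Fragments per library were estimated from whole-fragment steps in the FPKM of single-transcript genes. Both steps were tested on simulated data.

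Groups came from sample titles and column names. The 2 ear skin columns carry numbers that differ from the titles and were used without a number. Members and lists were chosen with earlier results of these data known. Named genes are the 8 members, the 3 genes with the highest r to each, the 3 most abundant genes of a list, and the 18 further regulators, and genes that overlap a member. One hair keratin, Krt85, was not matched. Alternatives were a pseudocount of 0.1, no filter, a minimum of 5 FPKM, TPM, median of ratios, quantile normalization, no trend, a replicate block, fewer libraries, the other dorsal group, and each library left out. Positions are from GENCODE vM21 on GRCm38. Python 3.11.15, pandas 2.3.3, numpy 2.4.6 and matplotlib 3.10.9 were used.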

Additional observations from a re-analysis of the deposited data

Results flagged for a closer look

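All 8 regulators are listed here because their stage profiles were not parallel in the 3 domains, as tested by the interaction of domain and stage with limma over all genes, of which 73.3% passed. The adjusted p was 2.63e-14 for Hr, 4.52e-13 for Foxn1, 3.21e-12 for Msx1 and 6.16e-12 for Msx2. It was 1.39e-11 for Cux1, 5.36e-10 for Ovol1, 2.27e-09 for Dlx3 and 7.24e-08 for Gata3. No group held 4 or more libraries, so single libraries were not tested against their group.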

How the results depend on the processing

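The stage tests and the interaction test called 7 or 8 of 8 members in every fit, those without 1 library included. Members differing among domains in late anagen, 1 in the report, were 2 at a minimum of 5 FPKM and with quantile normalization, 4 with TPM and 5 with the libraries of that stage alone, where mid anagen gave 0 and refractory telogen 3. With the libraries of 1 domain alone, members higher at the later of consecutive stages summed to 3 in chin skin (6 in the report) and 14 in dorsal skin (9). With dorsal refractory telogen as the dorsal group, 1 member, Msx1 at 0.22, was higher in ear skin than in dorsal skin. Under another scaling, 2 called steps changed sign: Cux1 from dorsal competent telogen to early anagen (-0.039 with the median of ratios) and Ovol1 from ventral competent telogen to early anagen (0.0015 with quantile normalization). Median of ratios scaling brought the median over all genes to between -0.012 and 0.0027 at every skin step, from -0.18 to 0.25 in FPKM. The split of all genes into higher and lower came to 20.2% and 18.7% at the first ventral step, 21.8% and 21.1% at the second, 7.03% and 4.61% at the second chin step, 10.6% and 10.4% at the third, 5.56% and 7.23% at the fourth and 25.2% and 23% at the last, and to 33.1% and 37.3% for the cartilage/muscle complex against dorsal skin. Without the competent telogen groups and ventral early anagen, chosen after seeing the data, the steps that remained lost the chin calls of Gata3 (mid to late anagen), Msx2 and Cux1 (late anagen to catagen) and the dorsal call of Dlx3 (late anagen to catagen), and gained none. The chin step of Msx2 from mid to late anagen, not called in the report (-0.22), ran from -0.53 to 0.085 over the fits without 1 library. Without 1 library, members differing among domains ranged from 1 to 6 in mid anagen and from 1 to 4 in late anagen (4 without either chin mid anagen library, 3 without chin refractory telogen replicate 2, and 2 without a chin early anagen or ventral refractory telogen library or chin refractory telogen replicate 3), and the chin sum of higher members from 3 to 8 (3 without either late anagen library or catagen replicate 2 or 3). Shares of all genes are not given beside the member counts and sums above, which are therefore not a result about the members. Fewer libraries also leave fewer degrees of freedom, and the cause of these shifts was not tested.

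Replicate numbers gave no sign of pairing over all groups: same-numbered libraries of different groups deviated with a median r of 0.0030 over 327 pairs. For other numbers the median was -0.0028 over 544 pairs. An r over 0.1 was found in 9 of the same-numbered and 16 of the other pairs. Pairing within a few groups could be missed by these medians. With a replicate block, the members lower at the later stage in dorsal skin summed to 11 in place of 12, Dlx3 from late anagen to catagen being lost (adjusted p = 0.0509), and no other call changed. No block could be fitted to the ear table, whose ear skin columns are unnumbered. The lowest member value in skin rested on about 103 fragments, and the part of counting error in the spread of libraries was not tested. Groups of 2 or 3 limit what can be called.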
